A study of Rattus norvegicus with 18 samples.

Results

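The genes described here are 10 targets of the transcription factor p53, those by which it holds the cell cycle and those by which it starts apoptosis. They were named by their known roles, with earlier results of these data known: Mdm2, Cdkn1a, Ccng1, Gadd45a, Btg2, Fas, Pmaip1, Apaf1, Bax and Perp. Of the 10 genes, 9 are on the array with 1 annotated probe each, and 8 passed the filter on low values, among 9531 genes tested in the whole series. The mRNA came from mesenchymal stromal cells (MSCs) of the bone marrow of male Sprague Dawley rats, from aged donors of 12 months (aMSCs) and from young donors of 3 weeks (yMSCs). The cells were selected by plastic adherence, carried no transgene or treatment, and were measured at passage 2 (P2), passage 30 (P30) and passage 100 (P100), with 3 arrays in each of 6 groups. The study mentions a pair of long-term cultures, and whether the 3 late arrays of a group stem from separate flasks is not given in the sources used here. The p-values below therefore measure the spread between these arrays, which may be technical, and donor age at late passage cannot be told apart from the single culture.

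p53 accumulates when DNA is damaged or oncogenes are active, binds response elements near its target genes and raises their transcription. Mdm2 closes a feedback loop, since it is a target of p53 and marks p53 for degradation. MSCs taken through many passages usually slow down and senesce, and the p53 and p21 pathway is among the best known routes to that arrest. The study reports that these rat cultures kept their rate of proliferation over the long culture. By Western blot it found more p21 protein at P30 and P100 than at P2, whereas the arrays measure mRNA only.

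Near the start sites of these genes, the p53 consensus was searched, which is a pair of adjacent 10-base elements here taken without a spacer and is its own reverse complement, so that both strands are read at once. Windows of 300 bases, from 250 before to 50 after the start site, were taken from the RefSeq table for rat GRCr8, which held 9 of the 10 genes, all but Bax. The closest windows were those of Cdkn1a and Ccng1, each with 1 mismatch over the 20 bases, a distance that 0.0717% of all 33469 windows reach. Pmaip1 followed with 3 mismatches, where 6.18% of all windows have at most 3, and the other 6 genes had 4 or 5. The sequences before the start site are shown for these 3 genes, since they hold the closest matches, with the 20 bases closest to the consensus in capitals. The 250 bases shown lie at chr20:7150682-7150931 on the plus strand for Cdkn1a, chr10:25684877-25685126 on the minus strand for Ccng1 and chr18:62255720-62255969 on the plus strand for Pmaip1. The annotated gene of Cdkn1a begins at 7150820, within the bases shown, and the window of Mdm2 lies wholly inside its annotated gene. In Cdkn1a the capitals stand 201 to 182 bases before the start site, in Ccng1 242 to 223 and in Pmaip1 170 to 151, each outside the annotated gene. A match is a description of the letters and not a binding site, and no binding was measured on these arrays.
Cdkn1a: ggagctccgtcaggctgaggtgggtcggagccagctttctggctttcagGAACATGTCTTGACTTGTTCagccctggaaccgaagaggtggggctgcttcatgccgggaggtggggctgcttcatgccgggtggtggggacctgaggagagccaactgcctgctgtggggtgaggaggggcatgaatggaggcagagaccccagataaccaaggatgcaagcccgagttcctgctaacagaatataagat
Ccng1: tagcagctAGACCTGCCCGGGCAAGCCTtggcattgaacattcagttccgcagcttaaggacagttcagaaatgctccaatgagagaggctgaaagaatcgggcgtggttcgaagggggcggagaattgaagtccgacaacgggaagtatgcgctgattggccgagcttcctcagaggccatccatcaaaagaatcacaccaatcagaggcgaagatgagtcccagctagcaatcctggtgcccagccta
Pmaip1: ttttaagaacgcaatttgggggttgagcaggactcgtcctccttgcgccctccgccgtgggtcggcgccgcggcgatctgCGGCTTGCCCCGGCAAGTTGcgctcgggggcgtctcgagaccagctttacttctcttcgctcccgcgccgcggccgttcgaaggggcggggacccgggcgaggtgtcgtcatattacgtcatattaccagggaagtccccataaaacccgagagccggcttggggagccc

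Levels are given as log2 normalized intensities of the scanner signal, after a background correction and quantile normalization between arrays, and a level is never set against that of another gene. A gene counted as called where limma, with all 18 arrays in the model, gave an adjusted p under 0.05 and the fold reached 1.5. Undetected probes had a median intensity of 51.6 to 56.2 on the 12 later arrays and of 31.3 to 34.7 on the 6 P2 arrays, so that P2 differs from the later passages in background as well as in passage. Of 8 MSC markers on the array, 6 to 8 were detected in each group, and of 4 endothelial markers none was detected in any group. Of 18 macrophage and monocyte markers, 5 were detected in aMSCs P2 and 12 in yMSCs P2, while in each of the 4 later groups Cd14 alone was detected. Their summed normalized intensity was 866 to 2048 on the arrays of aMSCs P2, 1868 to 4649 on those of yMSCs P2 and 237 to 648 on all later arrays. Ptprc, the pan-leukocyte marker, was detected in no group. All 12 macrophage markers tested were lower in yMSCs P30 than in yMSCs P2. This count was largely set by the filter on low values, which keeps genes detected in at least 1 group, and 12 were detected in yMSCs P2. The part of these markers in the changes from P2 was not tested. In these bulk samples, fewer cells of a type and less RNA per cell cannot be told apart.

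At P30 most of these p53 targets were lower than at P2 in both donor ages, and at P100 Cdkn1a, Mdm2 and Fas were lower in aMSCs and not called against P2 in yMSCs, while Gadd45a and Pmaip1 were lower in both. In aMSCs P30 against aMSCs P2, 6 members were lower and 1 was higher, where 39.3% of all genes tested were called, 20.0% as lower and 19.3% as higher. In yMSCs P30 against yMSCs P2, 5 were lower and 1 was higher, against 32.7% called, 16.4% in each direction, over all genes. In aMSCs P100 against aMSCs P2, again 5 were lower and 1 was higher (37.7% called, 18.6% lower and 19.1% higher over all genes). In yMSCs P100 against yMSCs P2, 2 were lower and 1 was higher, which with 39.3% of all genes called, 18.7% lower and 20.6% higher, is near the background share. The median log2 fold change of the 8 members was -0.83, -0.73, -0.74 and -0.02 in these 4 comparisons, beside 0.05, 0.04, 0.03 and 0.06 over all genes. Without any normalization between arrays the medians of all genes moved by up to 0.21 on the log2 scale, and all members called lower against P2 stayed lower and called.

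**Figure D1:**
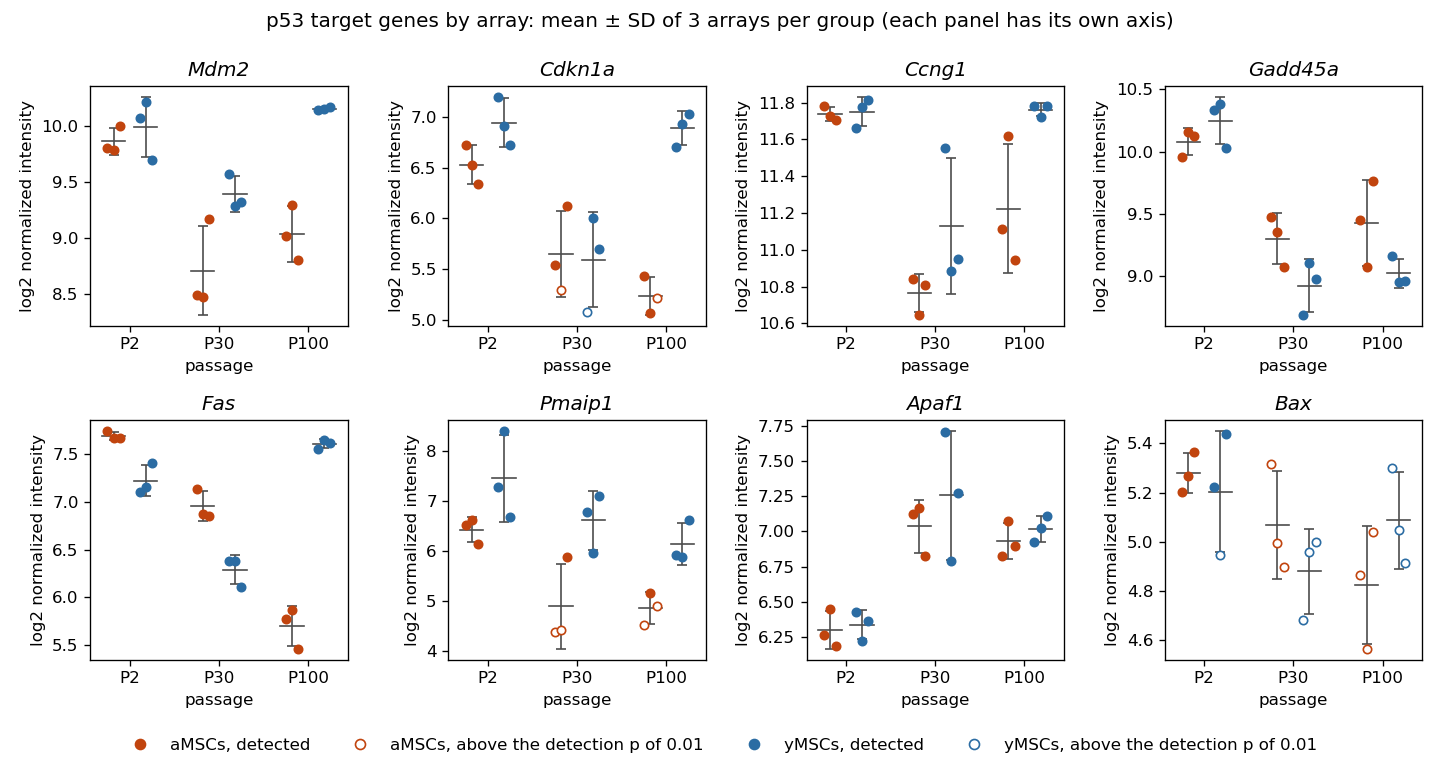
Log2 normalized intensity (y axis, a scale of its own in each panel) of the 8 p53 target genes tested, on each of the 18 arrays by passage (x axis), with aMSCs in orange and yMSCs in blue, bars for the mean ± SD of 3 arrays and open points for arrays on which the probe was not detected. Fas, Cdkn1a and Mdm2 are high in yMSCs P100 and low in aMSCs P100 with no overlap between the arrays. Ccng1 and Pmaip1 do not overlap there either, and the share of all genes without overlap was not counted.

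Mdm2, the ubiquitin ligase that keeps p53 low and is itself raised by p53, had log2 levels in aMSCs of 9.80, 9.79 and 10.00 at P2, 8.49, 8.47 and 9.17 at P30, and 9.02, 9.30 and 8.80 at P100. In yMSCs Mdm2 had 10.07, 10.21 and 9.70 at P2, 9.58, 9.28 and 9.33 at P30, and 10.14, 10.15 and 10.17 at P100. Arrays of P30 lay below the P2 arrays in both donor ages, and at P100 the aMSCs arrays were still low whereas the yMSCs arrays stood among those of P2. In aMSCs the log2 fold change against P2 was -1.15 ± 0.19 (SE) at P30 and -0.83 ± 0.19 at P100 (adjusted p = 0.00011 and 0.0017). In yMSCs it was -0.60 ± 0.19 at P30 (adjusted p = 0.016) and 0.16 ± 0.19 at P100, with a 95% confidence interval of -0.23 to 0.56. The call in yMSCs P30 rested on single arrays: it was lost without yMSCs P2 replicate 1 (-0.56) or 2 (-0.49) and without yMSCs P30 replicate 2 (-0.54) or 3 (-0.56).

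Cdkn1a encodes p21, the inhibitor of cyclin-dependent kinases through which p53 stops the cell cycle. In aMSCs its log2 levels were 6.72, 6.53 and 6.34 at P2, 5.54, 5.30 and 6.12 at P30, and 5.44, 5.07 and 5.22 at P100. In yMSCs they were 7.19, 6.91 and 6.72 at P2, 5.08, 6.00 and 5.70 at P30, and 6.70, 6.93 and 7.03 at P100. Thus the P30 arrays did not overlap with the P2 arrays in either donor age, and at P100 the yMSCs arrays lay in the range of P2 while the aMSCs arrays lay near those of P30. Against P2, Cdkn1a was 1.83-fold lower in aMSCs P30 (log2 fold change -0.88 ± 0.23 SE, adjusted p = 0.0049) and 2.44-fold lower in aMSCs P100 (-1.29 ± 0.23, adjusted p = 0.00023). In yMSCs P30 it was 2.54-fold lower (-1.35 ± 0.23, adjusted p = 0.0002). In yMSCs P100 the log2 fold change was -0.06, with a 95% confidence interval of -0.54 to 0.43. The probe is dim: it missed the detection limit (detection p of 0.01) narrowly on 1 array each of aMSCs P30, yMSCs P30 and aMSCs P100. With an offset of 50 in place of 16, or without aMSCs P30 replicates 1 and 2, the call in aMSCs P30 was lost, at log2 fold changes of -0.58 and -0.41.

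Ccng1, the cyclin G1 gene, whose product guides a phosphatase to Mdm2, followed a like order with smaller steps. In aMSCs it had log2 levels of 11.78, 11.73 and 11.71 at P2, 10.84, 10.65 and 10.81 at P30, and 11.11, 11.62 and 10.94 at P100. In yMSCs it had 11.66, 11.78 and 11.81 at P2, 11.56, 10.88 and 10.95 at P30, and 11.78, 11.72 and 11.78 at P100. All P30 arrays were below all P2 arrays of the same donor age, with yMSCs P30 replicate 1 close to them, and aMSCs P100 replicate 2 stood above the other arrays of its group. Against P2, the log2 fold change was -0.97 ± 0.18 in aMSCs P30 and -0.62 ± 0.18 in yMSCs P30 (adjusted p = 0.00028 and 0.0094). In aMSCs P100 it was -0.51 ± 0.18, at an adjusted p of 0.024 but under the fold of 1.5, and in yMSCs P100 it was 0.01, with an interval of -0.36 to 0.39. Without aMSCs P100 replicate 2 the value in aMSCs P100 was -0.72 and was called, and without yMSCs P30 replicate 2 or 3 the value in yMSCs P30 was -0.50 or -0.53 and was not called. With the authors' normalized intensities and with no normalization between arrays, Ccng1 was called lower in aMSCs P100 as well, at -0.97 and -0.82.

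Gadd45a, a stress sensor that binds p21 and the Cdk1 kinase and slows entry into mitosis, fell early and did not return. Its log2 levels in aMSCs were 9.96, 10.16 and 10.12 at P2, 9.47, 9.36 and 9.08 at P30, and 9.45, 9.07 and 9.77 at P100. In yMSCs they were 10.33, 10.38 and 10.03 at P2, 8.69, 9.11 and 8.98 at P30, and 9.16, 8.95 and 8.96 at P100. Every P30 and P100 array was below every P2 array, in contrast to Cdkn1a and Mdm2, whose arrays of yMSCs P100 reached those of P2. Against P2 the gene was 2.34-fold lower in yMSCs P100 (log2 fold change -1.22 ± 0.17, adjusted p = 2.2e-05) and 1.57-fold lower in aMSCs P100 (-0.65 ± 0.17, adjusted p = 0.0056). At P30 the log2 fold changes were -0.78 ± 0.17 in aMSCs and -1.32 ± 0.17 in yMSCs (adjusted p = 0.0015 and 1.4e-05). Without aMSCs P100 replicate 2 the value in aMSCs P100 was -0.47 and was no longer called. Btg2, an antiproliferative target of p53, has no annotated probe here and was not analysed.

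**Figure D2:**
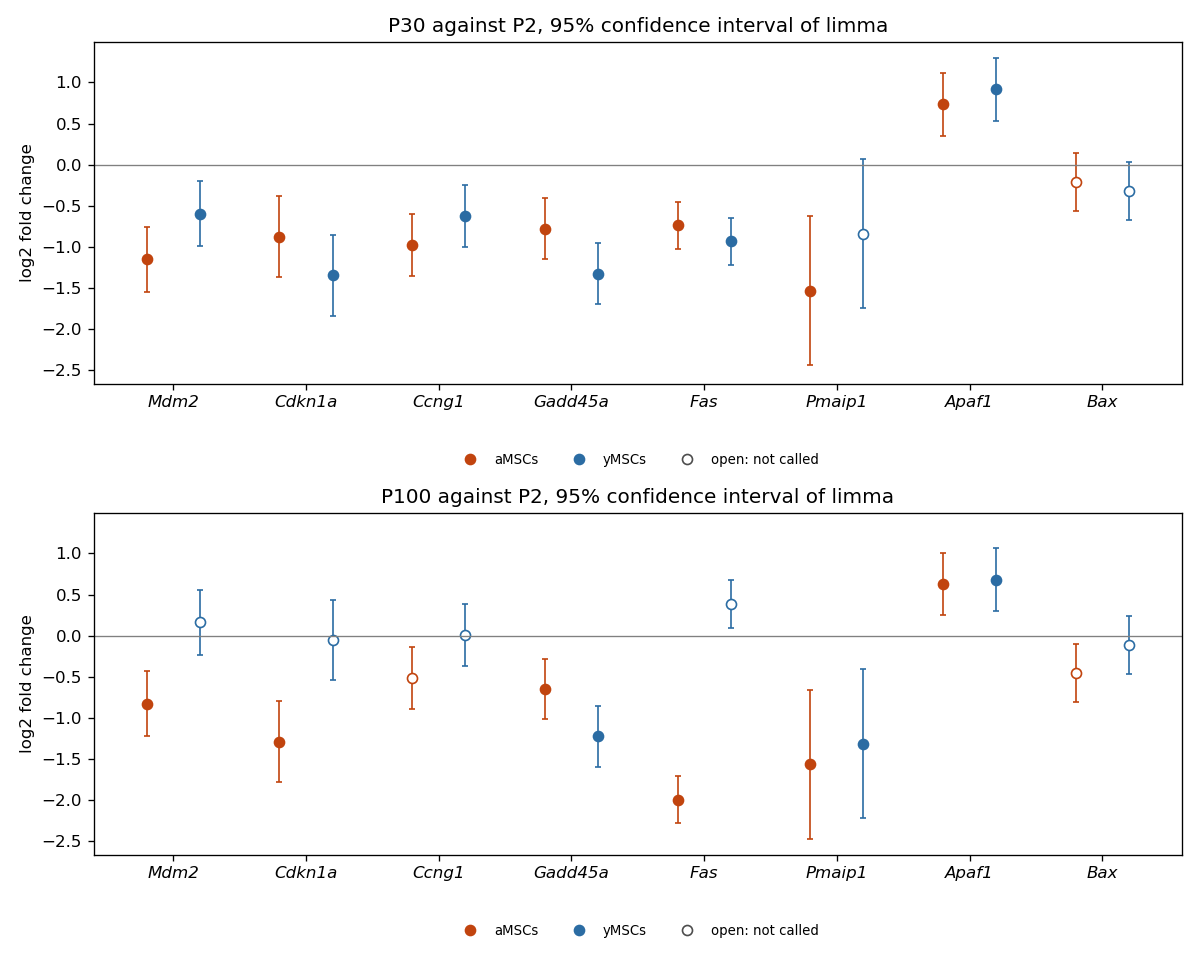
Log2 fold change against P2 (y axis) of the 8 p53 target genes (x axis) at P30 in the upper panel and at P100 in the lower panel, with aMSCs in orange and yMSCs in blue, the 95% confidence interval as bars and open points for changes not called. At P30 both donor ages lie below 0 for all genes but Apaf1, and at P100 Fas, Cdkn1a and Mdm2 are called lower in aMSCs, with -1.99, -1.29 and -0.83, and are not called in yMSCs.

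Fas, the death receptor that starts the extrinsic route of apoptosis, ran in opposite directions in aMSCs and yMSCs after P30. In aMSCs its log2 levels were 7.74, 7.67 and 7.66 at P2, 7.13, 6.87 and 6.85 at P30, and 5.77, 5.86 and 5.46 at P100. In yMSCs they were 7.11, 7.15 and 7.41 at P2, 6.38, 6.38 and 6.11 at P30, and 7.56, 7.65 and 7.61 at P100. In aMSCs each passage lay below the one before with no overlap, whereas in yMSCs the P30 arrays were the lowest and all P100 arrays were above all P2 arrays. Against P2, Fas was 3.98-fold lower in aMSCs P100 (log2 fold change -1.99 ± 0.14, adjusted p = 4.5e-09), and it was lower at P30 by -0.74 in aMSCs and -0.93 in yMSCs on the log2 scale (adjusted p = 0.00031 and 4.2e-05). In yMSCs P100 it was 0.38 ± 0.14 above yMSCs P2 (adjusted p = 0.027), which is under the fold of 1.5. These calls held with each array left out in turn.

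Pmaip1 encodes Noxa, a BH3-only protein that neutralises the survival factor Mcl1, and was the member with the widest spread. In aMSCs its log2 levels were 6.52, 6.63 and 6.13 at P2, 4.38, 4.42 and 5.87 at P30, and 4.52, 5.16 and 4.90 at P100. In yMSCs they were 7.28, 8.40 and 6.67 at P2, 6.78, 5.95 and 7.10 at P30, and 5.92, 5.88 and 6.61 at P100. It was not detected on 2 of 3 arrays of aMSCs P30 and 2 of 3 of aMSCs P100, yet on all arrays of the other groups, and within aMSCs the late arrays were below those of P2. Its highest array was yMSCs P2 replicate 2, which also had the highest summed macrophage markers (4649), and the part of these cells in Pmaip1 was not tested. Against P2 the log2 fold change was -1.53 ± 0.43 in aMSCs P30 and -1.56 ± 0.43 in aMSCs P100 (adjusted p = 0.0072 and 0.0066), each with 1 of 3 late arrays above detection, so that their size is uncertain. Without aMSCs P30 replicates 1 and 2, the arrays of that group on which it was not detected, the value in aMSCs P30 was -0.55 and the call was lost (adjusted p = 0.47). In yMSCs it was -0.84 ± 0.43 at P30, where the arrays overlapped with P2 (adjusted p = 0.13), and -1.31 ± 0.43 at P100 (adjusted p = 0.017). The call in yMSCs P100 was lost without yMSCs P2 replicate 2 (-0.84), yMSCs P100 replicate 1 (-1.21) or yMSCs P100 replicate 2 (-1.19). Without yMSCs P2 replicate 3 the value in yMSCs P30 was -1.23 and was called.

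Apaf1, the scaffold on which cytochrome c assembles the apoptosome, was the member that rose. Its log2 levels in aMSCs were 6.27, 6.45 and 6.19 at P2, 7.13, 7.16 and 6.82 at P30, and 6.82, 7.07 and 6.90 at P100, and in yMSCs 6.43, 6.22 and 6.36 at P2, 7.70, 6.79 and 7.27 at P30, and 6.93, 7.02 and 7.11 at P100. All late arrays were above all P2 arrays, and P30 and P100 overlapped. Against P2, Apaf1 was higher by 0.74 ± 0.18 in aMSCs P30 and 0.63 ± 0.18 in aMSCs P100 on the log2 scale (adjusted p = 0.003 and 0.0088). In yMSCs the rises were 0.92 ± 0.18 at P30 and 0.68 ± 0.18 at P100 (adjusted p = 0.00067 and 0.005). These folds are close to the limit of 1.5, and all but that in yMSCs P30 were lost with an offset of 50. In aMSCs P100 the call was also lost without aMSCs P2 replicate 3 (0.57) or aMSCs P100 replicate 2 (0.56), and in yMSCs P100 it was lost with the authors' normalized intensities (0.55). Without normalization between arrays it was lost in aMSCs P30 (0.53) and in yMSCs P100 (0.41). It was lost as well in aMSCs P30 without replicates 1 and 2 of that group (0.51) and in aMSCs P100 with array weights (0.53).

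Bax, which opens the outer mitochondrial membrane, was at the edge of detection. It was detected on 3 of 3 arrays of aMSCs P2 and 2 of 3 of yMSCs P2, and on no array of P30 or P100, so that only a bound can be given for the later groups. Its log2 levels were 5.20 to 5.36 in aMSCs P2 and 4.95 to 5.44 in yMSCs P2, and 4.57 to 5.31 over the 12 later arrays, a range that overlaps with both. In aMSCs P100 against aMSCs P2 the log2 fold change fitted by limma was -0.45 (adjusted p = 0.034) and was not called. The mean scanner intensity was 62.3 in aMSCs P100 and 56.3 in aMSCs P2, so that Bax was lower only after background correction and normalization. The bound, taken on the normalized values, exceeded 1 in aMSCs P100 alone, at 1.13-fold below aMSCs P2, and was not itself tested. For this bound, the mean of aMSCs P2 was set against the detection floor of the arrays of aMSCs P100, which is the lowest normalized signal of any detected probe on an array, or the signal of Bax where that was higher. Perp, a membrane protein of desmosomes that p53 induces in apoptosis, was detected on no array.

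Set against P30, the P100 cultures of both donor ages moved apart. In yMSCs P100 against yMSCs P30, 4 of 8 members were higher and none was lower, where 7.87% of all genes were called, 3.37% as higher and 4.50% as lower. These were Fas (1.32 ± 0.14 on the log2 scale, adjusted p = 3e-06), Cdkn1a (1.29 ± 0.23, adjusted p = 0.0011), Mdm2 (0.76 ± 0.19, adjusted p = 0.014) and Ccng1 (0.63 ± 0.18, adjusted p = 0.031). Fas and Cdkn1a, 2.49-fold and 2.45-fold higher, were called with any array left out. Mdm2 was lost without yMSCs P30 replicate 2 (0.70), yMSCs P30 replicate 3 (0.73) or yMSCs P100 replicate 3 (0.75). Ccng1 was lost without yMSCs P30 replicate 2 (0.51) or 3 (0.54) and without yMSCs P100 replicate 1 (0.62), 2 (0.65) or 3 (0.62). In aMSCs P100 against aMSCs P30, Fas was 2.38-fold lower (-1.25 ± 0.14, adjusted p = 2.5e-06) and no other member was called, where 26.3% of all genes were, 12.1% as lower and 14.2% as higher. Without aMSCs P100 replicate 3, Ccng1 was called higher there, at 0.60 against 0.46 with all arrays. Both late passages have a like background, and in both the macrophage markers other than Cd14 were not detected. Cd14 itself was higher at P100 than at P30, by 1.36 in aMSCs and 1.42 in yMSCs on the log2 scale, and the summed markers were 482 to 572 in aMSCs P100 against 237 to 311 in aMSCs P30, and 604 to 648 in yMSCs P100 against 248 to 321 in yMSCs P30. Their part in the changes of the members was not tested.

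Between donor ages at P2, none of the 8 members was called, where 4.05% of all genes were, 1.77% as higher and 2.28% as lower. Fas and Pmaip1 had an unadjusted p under 0.05, and the share of all genes under that limit was not counted. Fas was 0.47 ± 0.14 higher in aMSCs P2 on the log2 scale with no overlap between the arrays (adjusted p = 0.064), and Pmaip1 was -1.02 ± 0.43 (adjusted p = 0.29). The arrays of Pmaip1 and Cdkn1a did not overlap either. With array weights in limma, Pmaip1 was called lower in aMSCs P2 (-1.35). At P30, 1 member was higher and 2 were lower in aMSCs than in yMSCs, among 17.6% of all genes called, 8.13% as higher and 9.51% as lower. Fas was 0.66 ± 0.14 higher (adjusted p = 0.0024), Mdm2 was -0.68 ± 0.19 (adjusted p = 0.015) and Pmaip1, detected on 1 of 3 arrays of aMSCs P30, was -1.72 ± 0.43 (adjusted p = 0.0091). These calls rested on aMSCs P30 replicates 1 and 2: without replicate 1 none was left, at 0.57 for Fas, -0.57 for Mdm2 and -1.46 for Pmaip1, and without replicate 2 Mdm2 (-0.56) and Pmaip1 (-1.49) were lost. Fas was also lost without yMSCs P30 replicate 3 (0.57) and Mdm2 without yMSCs P30 replicate 1 (-0.60). A fit of these arrays only called none, and over all 9531 genes it called 375 higher and 330 lower, in place of 775 and 906.

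At P100 the mRNA of Mdm2, Cdkn1a and Fas was lower in aMSCs than in yMSCs, while the arrest genes Ccng1 and Gadd45a were not called. Of the 8 members 4 were lower in aMSCs P100 than in yMSCs P100 and none was higher, where 19.0% of all genes were called, 9.02% as lower and 10.0% as higher. Their median log2 fold change was -0.83, beside -0.02 over all genes. Fas was 3.75-fold lower (log2 fold change -1.91 ± 0.14, adjusted p = 1.7e-08), Cdkn1a 3.13-fold lower (-1.65 ± 0.23, adjusted p = 5e-05) and Mdm2 2.17-fold lower (-1.12 ± 0.19, adjusted p = 0.00031). The arrays of both groups did not overlap for these 3 genes, nor for Pmaip1 and Ccng1, and the share over all genes was not counted. Fas, Cdkn1a and Mdm2 were called with each array left out and under each of the other settings tried. Pmaip1, detected on 1 of 3 arrays of aMSCs P100, was -1.28 ± 0.43 (adjusted p = 0.04), and this call is marginal. It was lost with an offset of 50 (-0.73), without normalization between arrays (-1.14), without the filter, with array weights (-1.14) and with the replicate number as a block. It was also lost with any of the 6 arrays left out. The value was then -1.10, -1.42 and -1.30 without aMSCs P100 replicates 1, 2 and 3. Without yMSCs P100 replicates 1, 2 and 3 it was -1.39, -1.41 and -1.04. Ccng1 was -0.54 ± 0.18 (adjusted p = 0.036), under the fold of 1.5, and without aMSCs P100 replicate 2 it was called at -0.74, as was Gadd45a at 0.59 in the other direction. Apaf1 did not differ beyond its interval of -0.47 to 0.29. The summed macrophage markers were 482 to 572 on the arrays of aMSCs P100 and 604 to 648 on those of yMSCs P100.

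**Figure D3:**
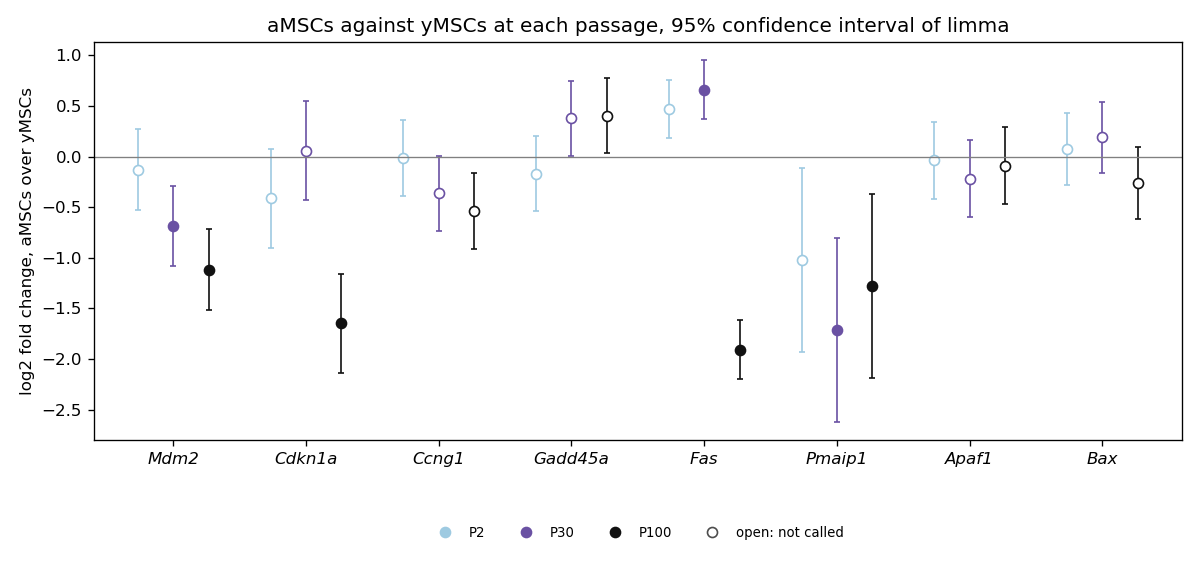
Log2 fold change of aMSCs over yMSCs (y axis) of the 8 p53 target genes (x axis) at P2, P30 and P100, with the 95% confidence interval as bars and open points for differences not called. At P2 no gene is called, and at P100 Fas, Cdkn1a, Mdm2 and Pmaip1 are lower in aMSCs, with -1.91, -1.65, -1.12 and -1.28, the call of Pmaip1 being marginal.

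The difference between donor ages in the change itself was also tested. For P100 against P2, the change was lower in aMSCs than in yMSCs for 3 members, among 13.8% of all genes called, 5.59% as lower and 8.16% as higher. The difference, aMSCs minus yMSCs, was -2.38 ± 0.19 for Fas (adjusted p = 1.4e-07), -1.23 ± 0.33 for Cdkn1a (adjusted p = 0.017) and -0.99 ± 0.27 for Mdm2 (adjusted p = 0.018), all on the log2 scale. For P100 against P30 it was -2.57 ± 0.19 for Fas (adjusted p = 5.1e-08) and -1.70 ± 0.33 for Cdkn1a (adjusted p = 0.0014), with 21.9% of all genes called, 10.5% as lower and 11.4% as higher. For P30 against P2 no member was called, with 11.8% of all genes called, 5.97% as lower and 5.81% as higher. Gadd45a alone among the 8 members had an unadjusted p under 0.05 there, and the share of all genes under that limit was not counted. These comparisons share arrays: P100 against P2 and P100 against P30 share those of P100, and P30 against P2 shares its arrays with both. Without normalization between arrays the difference for Mdm2 in P100 against P2 was -0.82 and was not called. Without aMSCs P100 replicate 2, Ccng1 (-0.73) and Gadd45a (0.75) were called too in P100 against P2, and without aMSCs P30 replicate 3, Mdm2 (-0.78) was called in P30 against P2.

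Across the 18 arrays, Mdm2 ran with Ccng1 (Pearson's r = 0.88) and with Cdkn1a (0.81), and Cdkn1a with Fas (0.79), while Apaf1 ran against Gadd45a (-0.87). These values are descriptions: the arrays share their group and their background. Among all named genes, the profile most like Fas was that of Cd151, a tetraspanin of the cell surface (0.94), which was also among the closest 3 of Cdkn1a (0.88). The closest to Cdkn1a was Fibin (0.90), to Mdm2 Me1 (0.90), to Gadd45a Tceal1 (0.96), to Pmaip1 Yes1 (0.94) and to Apaf1 Dnmt3b (0.94).

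Among regulators of p53, the genes called against P2 were all higher. Of 24 listed regulators, 13 were on the array and 8 were tested. In aMSCs P100, 5 were higher than in aMSCs P2 and none was lower, and in yMSCs P100 3 were higher and none was lower. Over all genes, 19.1% were higher and 18.6% lower in aMSCs P100, and 20.6% were higher and 18.7% lower in yMSCs P100, and the counts of the lists below stand beside these same shares. Chek2, a kinase that activates p53 after DNA damage, was higher by 1.31 ± 0.14 in aMSCs P100 and by 1.20 ± 0.14 in yMSCs P100. Usp7, which removes ubiquitin from both Mdm2 and p53, was higher by 1.15 ± 0.19 in aMSCs P100 and by 0.97 ± 0.19 in yMSCs P100. Twist1 was higher in aMSCs P100 (0.92 ± 0.24) and not called in yMSCs P100 (-0.03), and Kat5, an acetyltransferase of p53, was higher by 0.88 ± 0.13 in aMSCs P100 and by 0.85 ± 0.13 in yMSCs P100. Mdm4 and Cdkn2a have no annotated probe here and were not analysed. The median log2 fold change over this list was 0.87 in aMSCs P100 and 0.34 in yMSCs P100, beside -0.74 and -0.02 for the 8 target genes.

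Other targets of p53 in growth arrest and DNA repair moved in both directions. Of 14 tested, 5 were higher and 2 lower in aMSCs P100 than in aMSCs P2, and 4 were higher and 5 lower in yMSCs P100 than in yMSCs P2, where 37.7% and 39.3% of all genes were called. Sesn1, a stress protein that restrains mTOR, was higher by 1.71 ± 0.22 in aMSCs P100 (adjusted p = 9.7e-06) and was not called in yMSCs P100 (-0.21). Between the donor ages at P100 it was higher in aMSCs by 1.59 ± 0.22 (adjusted p = 4.7e-05), where Cdkn1a was lower. Ccng2, the relative of Ccng1, was higher by 0.85 ± 0.23 in aMSCs P100 and lower by -0.83 ± 0.23 in yMSCs P100. Tsc2 was higher in aMSCs P100 (0.87 ± 0.29) and in yMSCs P100 (0.80 ± 0.29), and so was Gtse1 (0.73 ± 0.22 and 1.67 ± 0.22), while Epha2 was not called in aMSCs P100 (0.82) and was higher in yMSCs P100 (2.33 ± 0.38). Igfbp3, which binds insulin-like growth factors, was not detected at P100 and was at least 6.76-fold lower in aMSCs P100 and at least 6.88-fold lower in yMSCs P100 than at P2. Gdf15 was likewise at least 4.26-fold and 3.82-fold lower, and Btg1, a relative of Btg2, was lower in yMSCs P100 (-1.93 ± 0.13) and not called in aMSCs P100 (-0.25).

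Of 12 other apoptosis targets tested, 1 was higher and 3 were lower in aMSCs P100 than in aMSCs P2, and 2 were higher and 3 lower in yMSCs P100 than in yMSCs P2, which is near the 37.7% and 39.3% called over all genes. Bak1, the partner of Bax at the mitochondrion, was higher in both, by 1.06 ± 0.11 in aMSCs P100 and 0.63 ± 0.11 in yMSCs P100. Aen, a nuclease that p53 induces, was lower in aMSCs P100 than in aMSCs P2 (-0.71 ± 0.12) and than in yMSCs P100 (-1.11 ± 0.12, adjusted p = 1.7e-06), as were Fas and Cdkn1a. Bid was lower in aMSCs P100 (-0.86 ± 0.29). Pycard was not detected in yMSCs P100 and was at least 4.22-fold higher in aMSCs P100. Among 15 genes of the BCL2 family and mitochondrial death, 6 were lower and 1 higher in aMSCs P100, with Bnip3 at -2.37 ± 0.17, and 2 were lower and 2 higher in yMSCs P100, with Bnip3 at -2.22 ± 0.17. Of 10 caspases and inhibitors of apoptosis, 1 was higher and 4 were lower in aMSCs P100, and 1 was higher and 3 were lower in yMSCs P100, with Casp2 higher and Casp4 lower in all 4 late groups than at P2. Of 8 other genes of the death receptor pathway, 1 was higher and none lower in aMSCs P100, where Fas was lower, and 1 was higher and 3 were lower in yMSCs P100. Among them were Tnfrsf1a, a receptor of tumour necrosis factor, higher by 0.92 in aMSCs P100, and Ripk1, a kinase of the receptor complex, at -0.90 in yMSCs P100.

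Most partners of p21 were higher than at P2 in aMSCs P30, yMSCs P30 and yMSCs P100, and 4 of 9 were in aMSCs P100. Of 9 cyclins, kinases and Pcna tested, 6 were higher in aMSCs P30 and 6 in yMSCs P30 than at P2, and at P100 4 in aMSCs and 8 in yMSCs, with none lower in these 4 comparisons. Over all genes 19.3%, 16.4%, 19.1% and 20.6% were higher in them. Cdk1, the mitotic kinase, was higher by 1.59 ± 0.28 in aMSCs P100 and by 2.05 ± 0.28 in yMSCs P100, and Ccna2 by 1.43 ± 0.23 and 2.13 ± 0.23. In aMSCs P100 against yMSCs P100, 5 of the 9 were lower, where 9.02% of all genes were, among them Ccne2 (-1.05), Ccna2 (-0.91) and Cdk6 (-0.86), so that these partners and Cdkn1a were both lower there. Of the 5 other inhibitors of cyclin-dependent kinases tested, Cdkn1b, which encodes p27, was higher in aMSCs P100 (0.70 ± 0.28, adjusted p = 0.047) and not called in yMSCs P100 (0.35), and Cdkn2b was detected at P2 only. In the families of Gadd45a and Btg2, with 7 tested, Gadd45g was lower in aMSCs P100 than in aMSCs P2 (-2.26 ± 0.27) and than in yMSCs P100 (-2.19 ± 0.27), and Gadd45b too (-1.49 ± 0.21 and -1.21 ± 0.21), whereas Btg3 was lower in all 4 late groups than at P2.

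**Figure D4:**
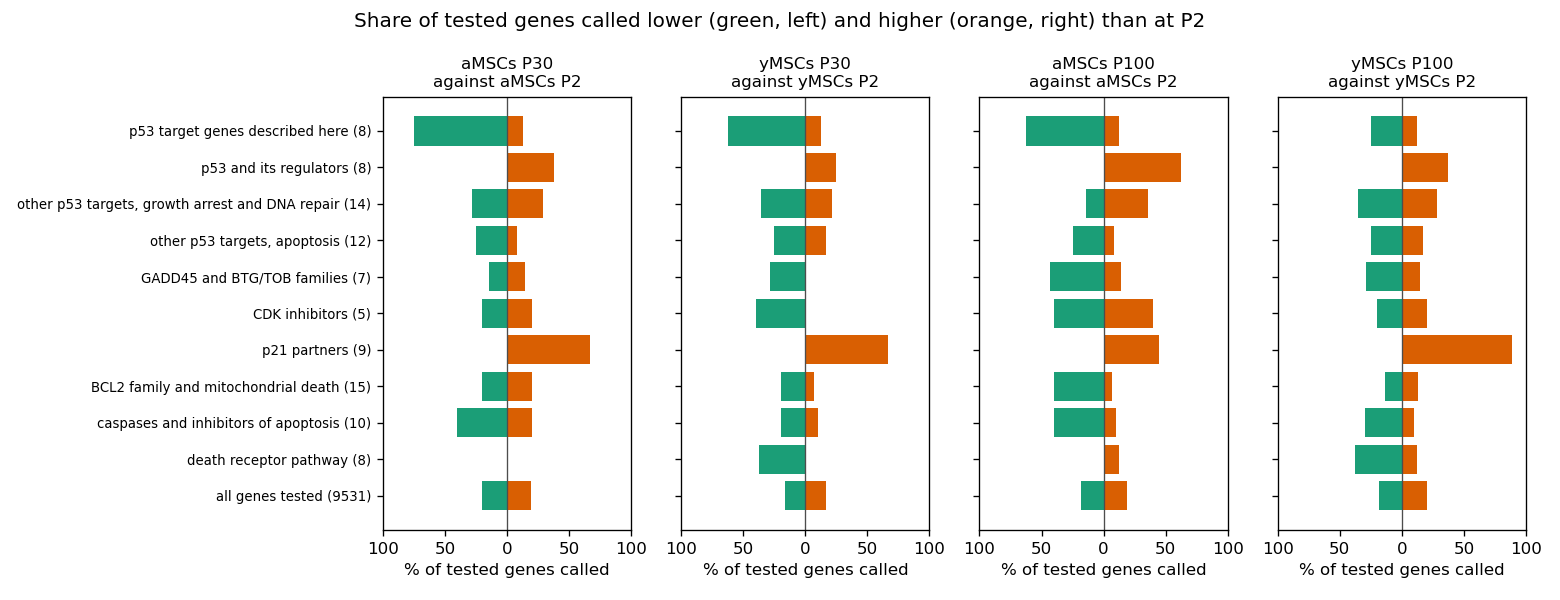
Share of tested genes called lower (green, to the left) and higher (orange, to the right) than at P2 (x axis, percent), for the 8 p53 target genes, 9 lists of the pathway (number tested in brackets) and all 9531 genes. The target genes are mostly lower at P30 in both donor ages and in aMSCs P100, while no partner of p21 and no regulator of p53 was lower.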

How the data were processed

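Total RNA was hybridised to Illumina RatRef-12 arrays, 1 per sample. The authors deposited scanner intensities from BeadStudio 3 without normalization, with a detection p-value per probe, and background-subtracted, rank invariant normalized intensities. From the scanner intensities of the deposited table, log2 values were computed with limma 3.58.1 in R 4.3.3 (normexp by detection p-value, offset of 16, quantile normalization). Of 22226 probes, 13192 had 1 gene symbol, 9034 had none here and 70 did not pair between the tables. Of several probes of a gene, that with the highest mean was used. Genes with a mean detection p-value of at most 0.01 in at least 1 group were tested, 9531 in all, of which 6837 were named. Group means were fitted over 18 arrays with no block, and p-values were adjusted by Benjamini-Hochberg over all genes. The detection limit and fold follow the study's methods, and limma stands in for the BeadStudio test. The procedure was tested on simulated data. The members and gene lists were chosen with earlier results of these data known. Members are all named, and from each list up to 3 called genes per direction with large changes, together with Mdm4, Cdkn2a and Cdkn1b where present. The number of arrays, 3 per group, limits the precision. Alternatives covered scaling, offset, filter, probe choice, weights, thresholds and arrays left out.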

Additional observations from a re-analysis of the deposited data

Results flagged for a closer look

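In 5 cases the change of a member differed between the donor ages by the test of the difference itself. For P100 against P2, the change in aMSCs minus that in yMSCs was -2.38 on the log2 scale for Fas, -1.23 for Cdkn1a and -0.99 for Mdm2. Over all genes 13.8% were called there, 5.59% as lower. For P100 against P30 it was -2.57 for Fas and -1.70 for Cdkn1a. Over all genes 21.9% were called there, 10.5% as lower, and 2 of 8 members called is near the background share of 21.9%. These comparisons share the P100 arrays. The values for Fas and Cdkn1a were called with each array left out in turn, and that for Mdm2 as well, though not without normalization between arrays (-0.82).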

How the results depend on the processing

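No called change of a member turned its direction under any alternative, and of 2008 values under other settings 60 changed sign, none of them called in either setting. With a fold of at least 2 in place of 1.5, 2 members were called in yMSCs P30 against P2, 2 in aMSCs P30 against P2, 3 in aMSCs P100 against P2, 2 in yMSCs P100 against P30 and 1 between aMSCs P30 and yMSCs P30. Calls over all 9531 genes fell too. In yMSCs P30 against P2, 657 genes were then higher and 761 lower, in place of 1561 and 1559. In aMSCs P30 against P2 there were 754 and 1052, in place of 1837 and 1904. In aMSCs P100 against P2 there were 855 and 913, in place of 1823 and 1772. In yMSCs P100 against P30 there were 135 and 272, in place of 321 and 429. Between aMSCs P30 and yMSCs P30 there were 307 and 493, in place of 775 and 906. Without aMSCs P30 replicates 1 and 2, the calls of Pmaip1 (-0.55), Cdkn1a (-0.41) and Apaf1 (0.51) in aMSCs P30 against P2 were lost. Lost too were those of Fas (0.55), Mdm2 (-0.23) and Pmaip1 (-0.73) between aMSCs P30 and yMSCs P30. The lone array is then assumed to vary like the other groups. A fit of only the arrays compared called 0 members between aMSCs P30 and yMSCs P30. Over all 9531 genes this fit called 375 higher and 330 lower, in place of 775 and 906. With array weights, 1 member was called between aMSCs P2 and yMSCs P2 and 5 in the difference between donor ages for P100 against P2. Over all genes, 378 were then higher and 428 lower between aMSCs P2 and yMSCs P2, in place of 169 and 217. In that difference between donor ages there were 897 and 762, in place of 778 and 533. The causes were not tested.

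With 1 array left out, 4 to 7 members were called in yMSCs P30 against P2, 7 in aMSCs P30 against P2, 2 to 3 in yMSCs P100 against P2, 5 to 6 in aMSCs P100 against P2, 2 to 4 in yMSCs P100 against P30 and 1 to 2 in aMSCs P100 against P30. Between aMSCs and yMSCs, 0 were called at P2, 0 to 3 at P30 and 3 to 5 at P100. In the differences between donor ages, 0 to 1 were called for P30 against P2, 3 to 5 for P100 against P2 and 2 for P100 against P30. The calls over all genes were not counted for these fits, so that no background share stands beside these ranges. With the replicate number as a block, 95 of 96 results (8 members in 12 comparisons, called or not) kept their status. The call of Pmaip1 between aMSCs P100 and yMSCs P100 was lost at -1.28 (adjusted p = 0.05). The numbers do not pair the samples: of 27 pairs with the same number, 3 had a correlation of deviations over 0.1, in a range of -0.12 to 0.22, and 9 had their best match in their own number.

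The share of higher among all called genes moved with the scaling. In yMSCs P30 against P2 there were 1561 genes higher and 1559 lower, with the authors' normalized intensities 1367 and 2226, and without normalization between arrays 1047 and 2083. With the authors' normalized intensities the share was 40.6% against 50.7% in aMSCs P100 against P2. Without normalization between arrays it was 31.4% against 49.1% in aMSCs P30 and 32.4% against 52.5% in yMSCs P100, each against P2, 68.0% against 53.9% in aMSCs P100 against P30 and 71.1% against 52.6% between aMSCs P100 and yMSCs P100. In the differences between donor ages it was 74.6% against 59.3% for P100 against P2 and 72.5% against 52.2% for P100 against P30. The signal of Bax in all late groups, of Pmaip1 on 2 of 3 arrays of aMSCs P30 and of aMSCs P100, and of Cdkn1a on single arrays of aMSCs P30, yMSCs P30 and aMSCs P100 did not pass the detection limit, which limits the precision of their changes.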
